A study of Mus musculus with 56 samples.

Results

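The interleukin 1 family was followed across skin cell populations through 9 genes, taken by symbol from a table of 24062 genes. They encode the agonists Il1a and Il1b, the receptor antagonist Il1rn, the signalling receptor Il1r1, the decoy receptor Il1r2, the shared receptor chain Il1rap, the interleukin 33 receptor Il1rl1, and the cytokines Il18 and Il33. RNA had been sequenced from 7 populations sorted by fluorescence from the dorsal skin of mice at postnatal day 22. The labels give CD1 as the genotype of all animals and K14-H2BGFP;Crabp1-GFP;Lef1-RFP as the line, so every group carried the same 3 reporters. K14 drives its nuclear green reporter in basal epithelial cells, and the other reporters mark cells that use Crabp1 or Lef1. Epi is the epidermis, Foll the follicle cells (labelled as upper hair follicle), BuSC the bulge stem cells and HGSC the hair germ stem cells. DP is the dermal papilla, DF the dermal fibroblasts and Neg a negative fraction that the labels call mixed. Each population came from 4 back skin sections (zones 1 to 4) with 2 biological replicates. That gives 28 groups and 56 libraries in all, with 8 for a population. Where on the back each zone lay is not in the labels, nor is whether libraries of one replicate number shared an animal, and the batch field of the labels holds the zone. Zone and batch therefore cannot be told apart.

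Interleukin 1 signalling starts when Il1a or Il1b binds Il1r1, which then recruits Il1rap and activates NF-kB through the adaptor Myd88. Il1rn occupies Il1r1 without recruiting Il1rap, and Il1r2 binds the same ligands but lacks a signalling tail. Il1b and Il18 are made as precursors that the inflammasome protease Casp1 cuts, whereas Il33 is stored in nuclei, is released when cells are damaged, and signals through Il1rl1 with Il1rap. Skin keratinocytes are a known source of Il1a, of its antagonist and of Il33. In bulk RNA, fewer cells of a type and less RNA per cell cannot be told apart, and RNA levels say nothing of stored or secreted protein.

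Library totals ran from 3.24 to 87.8 M reads with a median of 14.7 M. Levels are in RPKM as deposited, which scales reads by gene length and library total, and are given as mean ± SD of the 8 libraries of a population. Markers followed the labels for most populations. Dermal papilla markers summed to 657 to 873 RPKM in DP libraries and to at most 84.1 elsewhere, and fibroblast markers to 39800 to 52500 in DF and to at most 14600 elsewhere. Fibroblast sums in BuSC, 1090 to 8380, reached above those in DP, 1300 to 2260, and their part in BuSC levels was not tested. Basal keratinocyte markers summed to 2050 to 13700 in the 4 epithelial populations and to at most 1050 elsewhere. The sum of the bulge list did not set BuSC apart, at 1930 to 3210 RPKM in BuSC against 1380 to 3040 in Epi. That list shares Krt15 with the basal list, and its genes were not compared singly. By correlation, 52 of the 56 libraries lay nearest to one of their own population. The exceptions were replicate 2 of Foll zones 1, 3 and 4 and replicate 2 of Epi zone 3.

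The genes lie in several places of the genome, with a cluster of receptor genes and with Il1a close to Il1b. On the GRCm38 assembly (mm10) as annotated by GENCODE M21, Il1r2 (chr1:40074079-40125231) and Il1r1 (chr1:40225080-40317257) are followed by Il1rl2, Il1rl1 (chr1:40429570-40465415), Il18r1 and Il18rap. These 6 receptor genes share the plus strand and span 478 kb. Il1rn lies at chr2:24336853-24351494, and Il1a (chr2:129299610-129309972) and Il1b (chr2:129364570-129371139) lie on the minus strand of the same chromosome. Il1rap lies at chr16:26581704-26730117, Il18 at chr9:50554827-50581840 and Il33 at chr19:29925114-29960718. Il1a, Il1b, Il1r2 and Il1rap overlap transcripts on the other strand, and Il18 overlaps Bco2 and Tex12 there. Gm38070 and Gm37347 overlap Il1r1 and Il1r2 on the same strand. No source used here says whether counting took account of strand, and reads of such partners cannot be told apart.

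The upstream windows below belong to Il1rn and Il33, highest in Epi and Foll, and to Il1b, highest in the negative fraction, and were chosen with these values and the motif matches known. Il1r2, which was called in more population pairs, has 1 window with 0 matches, which is not printed because 108 of its bases lie in an annotated exon. Each holds the 250 bases before a RefSeq transcription start on GRCm38.p6, 5′ to 3′ on the gene's strand, with motif matches in capitals. They cover chr2:24336610-24336859 (plus strand) for Il1rn, chr2:129371140-129371389 (minus strand) for Il1b, and chr19:29924863-29925112 and chr19:29945540-29945789 (plus strand) for the upstream and downstream starts of Il33. The last of these lies inside the Il33 gene.
Il1rn: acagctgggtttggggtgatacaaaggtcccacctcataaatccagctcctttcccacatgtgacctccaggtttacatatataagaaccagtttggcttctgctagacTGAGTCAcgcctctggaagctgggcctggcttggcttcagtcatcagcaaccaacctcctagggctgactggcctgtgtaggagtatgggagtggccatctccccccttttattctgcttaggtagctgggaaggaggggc
Il1b: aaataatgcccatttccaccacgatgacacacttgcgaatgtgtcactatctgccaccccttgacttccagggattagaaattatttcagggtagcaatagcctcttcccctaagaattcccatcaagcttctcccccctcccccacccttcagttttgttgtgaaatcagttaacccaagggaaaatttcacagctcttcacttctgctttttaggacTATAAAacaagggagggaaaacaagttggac
Il33 upstream start: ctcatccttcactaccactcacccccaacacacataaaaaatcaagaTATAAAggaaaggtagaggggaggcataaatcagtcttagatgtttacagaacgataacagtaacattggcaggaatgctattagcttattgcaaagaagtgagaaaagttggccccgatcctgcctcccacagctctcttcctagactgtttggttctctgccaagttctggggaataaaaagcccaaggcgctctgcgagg
Il33 downstream start: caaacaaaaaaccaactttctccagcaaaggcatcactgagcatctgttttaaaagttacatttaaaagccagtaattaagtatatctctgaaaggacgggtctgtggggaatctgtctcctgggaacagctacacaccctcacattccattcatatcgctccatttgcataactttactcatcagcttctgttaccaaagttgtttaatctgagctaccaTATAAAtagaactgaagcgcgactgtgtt
Both strands were searched for the AP-1 motif TGANTCA, the TATA box TATAAA and the NF-kB motif. The printed Il1rn window held an AP-1 match, TGAGTCA, at -141 to -135 from the start, and no other match. It is 1 of 3 Il1rn windows, and those of the other starts, chr2:24345041-24345290 and chr2:24345121-24345370, held 0 matches of any of these motifs. Among 32851 RefSeq windows of the same length, 6.75% held the AP-1 motif. The Il1b window held a TATA box at -31 to -26, and the downstream Il33 window one at -29 to -24. The upstream Il33 window had its TATA match farther out, at -203 to -198. TATAAA was present in 12.4% of all windows. None of the 4 printed windows held an NF-kB match, a motif found in 3.9% of all windows. These matches are letters in a window and say nothing of whether a factor binds there.

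**Figure D1:**
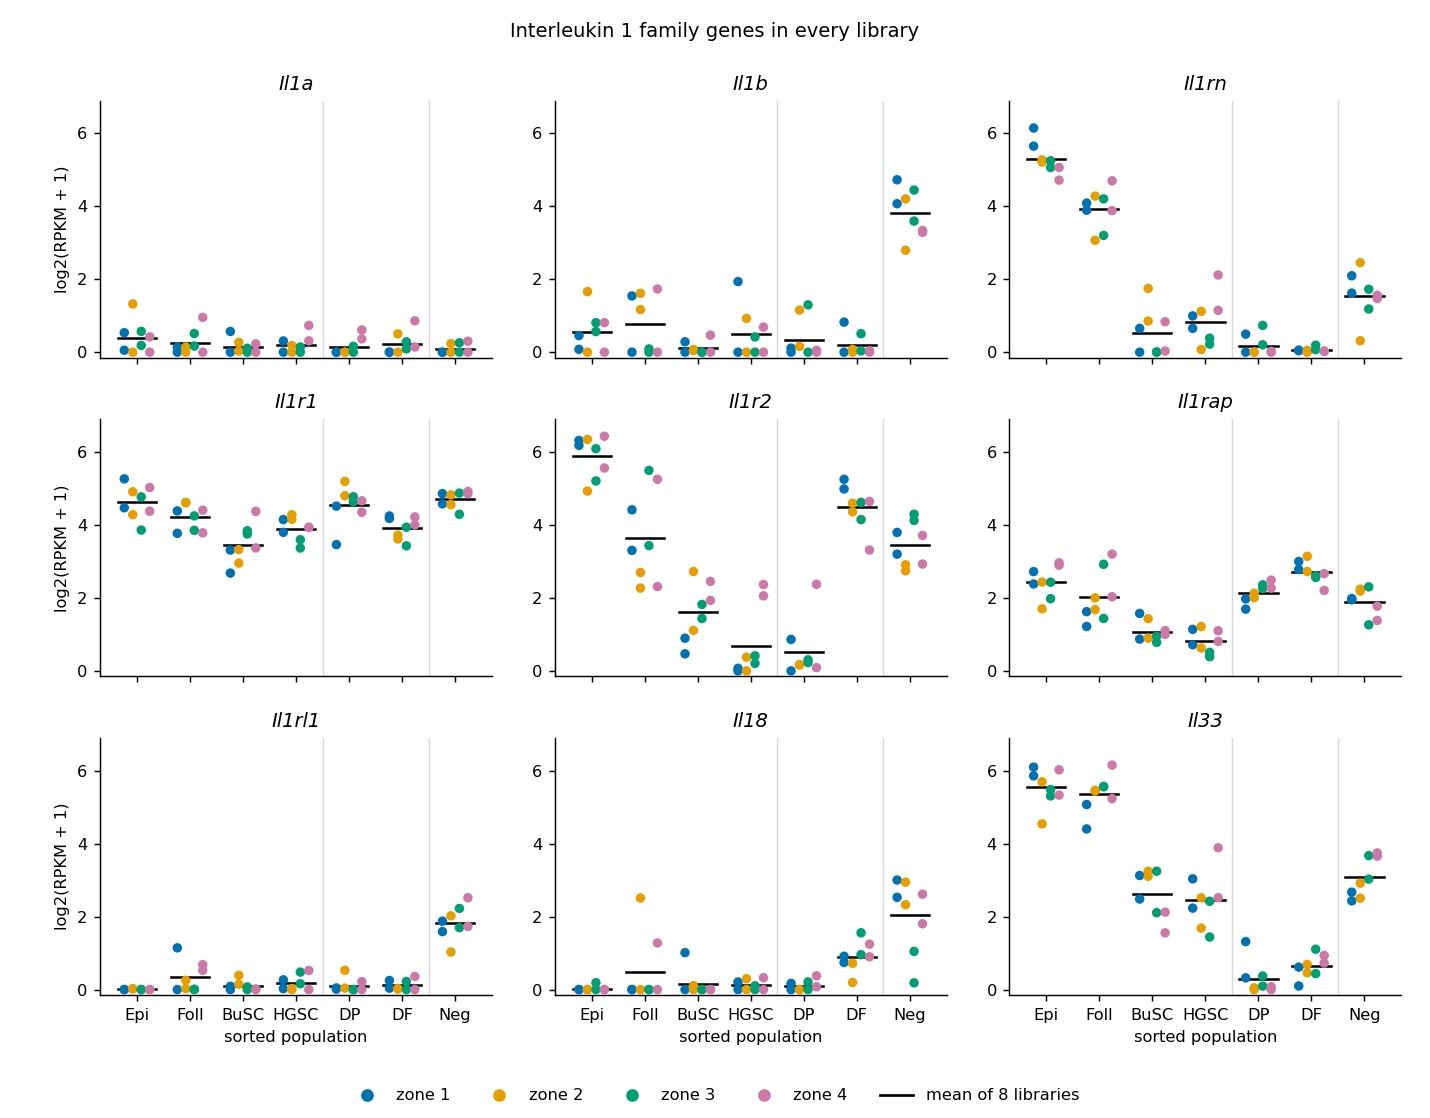
Level of each gene in every library as log2(RPKM + 1), by population; points are coloured by zone and the black line is the mean of the 8 libraries of a population. Il1rn and Il33 stood high in Epi and Foll, Il1b, Il1rl1 and Il18 were highest in Neg, Il1r1 was above 0 in all 56 libraries, and Il1r2 was high in Epi and DF.

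The agonists were scarce in the 6 populations other than Neg. Il1a reached 1 RPKM in 1 library of 56, an Epi library at 1.5, and was at 0 in 24. Its mean was highest in Epi, at 0.368 ± 0.498 RPKM, and lowest in Neg, at 0.0754 ± 0.105. The 8 Epi libraries together held 100 reads of it. All populations overlapped, and Il1a failed the filter of at least 1 RPKM in at least 2 libraries, so it was not tested. Where Il1a was at 0 in Epi, 3 reads would have been worth 0.121 to 0.165 RPKM, so a level below that could have gone undetected there.

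Il1b, the inflammasome-dependent agonist, belonged to the negative fraction. Neg libraries ranged from 5.94 to 25.5 RPKM with a median of 13.5 and a mean of 14.3 ± 6.74. The highest library of the other 6 populations, a HGSC library, stood at 2.83, so no Neg library overlapped the other 48. Mean levels elsewhere were 0.951 ± 1.04 in Foll, 0.585 ± 0.968 in HGSC, 0.572 ± 0.714 in Epi, 0.364 ± 0.608 in DP, 0.162 ± 0.284 in DF and 0.0854 ± 0.14 in BuSC. No neighbours in that order below Neg differed by the test.

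The antagonist was mainly a transcript of Epi and Foll. Il1rn was highest in Epi, where libraries ran from 25.3 to 69.9 RPKM with a median of 36.6 and a mean of 40.0 ± 13.8. Foll followed, from 7.39 to 25 with a median of 14.9 and a mean of 15 ± 5.68, and no Foll library reached the lowest Epi library. Neg came next at 2.17 ± 1.27, then HGSC at 0.976 ± 1.06 and BuSC at 0.569 ± 0.809, and both mesenchymal populations were lowest, DP at 0.155 ± 0.25 and DF at 0.0416 ± 0.0432. From Neg downward, neighbouring populations overlapped and their differences were not called. Set against the agonists within a library, Il1rn exceeded the sum of Il1a and Il1b in all 8 Epi and all 8 Foll libraries, by 24.2 to 69.1 RPKM in Epi. In Neg the sum of the agonists exceeded Il1rn in all 8 libraries, by a mean difference (Il1rn minus agonists) of -12.2 ± 5.87 RPKM.

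The signalling receptor was expressed throughout. Il1r1 was above 5 RPKM in all 56 libraries, with a lowest value of 5.42 in BuSC and a highest of 37.5 in Epi. Mean levels fell in the order Neg (25.7 ± 3.81), Epi (24.7 ± 7.86), DP (23.6 ± 7.27), Foll (18 ± 4.56), DF (14.4 ± 3.12), HGSC (14.3 ± 3.08) and BuSC (10.6 ± 4.53). No neighbours in this order differed by the test, and 3 of the 21 population pairs were called, each with BuSC as the lower member. BuSC was lower than Epi by a log2 difference of 1.17 (SE 0.18, adjusted p = 3.23e-06), and the other 2 pairs set it against DP and Neg.

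The decoy receptor separated the populations most often. Il1r2 was called in 17 of 21 pairs, with Epi libraries at 29.5 to 85.6 RPKM (median 69.5, mean 62.0 ± 21.7) and DF libraries at 8.95 to 37.2 (median 23.4, mean 23.0 ± 8.54). Foll libraries ran from 3.82 to 44.2 with a median of 9.35 and a mean of 16.7 ± 15.8. Its 2 highest libraries, replicate 2 of zones 3 (44.2) and 4 (37.2), were among those closest to an Epi library. The same 2 had the highest Foll sums of suprabasal keratinocyte markers, 5020 and 4150 RPKM, within the Epi range of 3210 to 5210. Replicate 2 of zone 2 also lay in that range, at 3720, with Il1r2 at 5.49. The part of suprabasal cells in the Foll level was not tested. Neg stood at 10.9 ± 4.91 RPKM, BuSC at 2.44 ± 1.82, HGSC at 1.02 ± 1.66 and DP at 0.715 ± 1.43. Epi exceeded DF (log2 difference 1.39, SE 0.35, adjusted p = 0.00102), although their libraries overlapped, and Neg exceeded BuSC with no overlap (adjusted p = 5.15e-05). The steps from DF to Foll and from Foll to Neg were not called.

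By RPKM, which divides reads by gene length, the decoy gene outweighed the signalling receptor gene within libraries of Epi and DF. Il1r2 made up 70.9 ± 4.69% of the summed RPKM of both receptors in Epi, with libraries from 61.5% to 77.2%, and 60.0 ± 10.7% in DF, where 7 of 8 libraries were above 50%. It was 40.8 ± 21% in Foll, 29.1 ± 10.8% in Neg and 17.6 ± 10.1% in BuSC. HGSC (5.94 ± 9.03%) and DP (3.0 ± 6.07%) had the lowest shares. The highest HGSC shares were both from zone 4, and the highest DP share was 17.7% against at most 3.6% in the other DP libraries. No test was run on these shares. They depend on the gene lengths behind the RPKM, recovered as 1344 bases for Il1r2 and 5035 for Il1r1. By summed reads Il1r1 exceeded Il1r2 in Epi (16313 and 10923) and in DF (14028 and 5996). Which gene had more transcripts in a library is therefore not settled here.

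**Figure D2:**
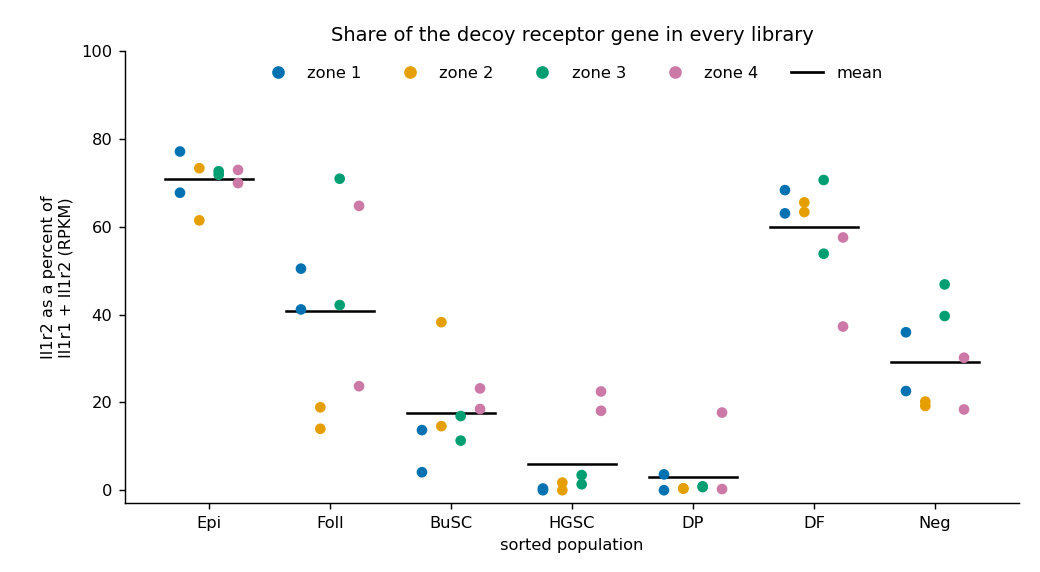
Il1r2 as a percent of the summed RPKM of Il1r1 and Il1r2 in every library, by population and zone; black lines are population means. All 8 Epi and 7 of 8 DF libraries lie above 50%, and the DP and HGSC means are 3.0% and 5.94%.

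Il1rap, the co-receptor shared by Il1r1 and Il1rl1, was above 0 in all 56 libraries. DF had the highest mean, 5.66 ± 1.29 RPKM, followed by Epi (4.64 ± 1.6), Foll (3.53 ± 2.5), DP (3.49 ± 0.755), Neg (2.81 ± 0.948), BuSC (1.15 ± 0.452) and HGSC (0.791 ± 0.383). No neighbours in this order were called, and the step from Neg to BuSC had an adjusted p of 0.00333 but stayed under the fold threshold. The 8 pairs called for Il1rap all had BuSC or HGSC as the lower member.

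The interleukin 33 receptor was found mainly in the negative fraction. Il1rl1 stood at 2.72 ± 1.12 RPKM in Neg, from 1.04 to 4.73 with a median of 2.5. Among all other libraries, 1 reached 1 RPKM, a Foll library at 1.21, so the ranges touched. In Epi it was at 0 in 6 of 8 libraries, where 3 reads would have been worth 0.00858 to 0.0478 RPKM, and the whole population held 2 reads. Foll stood at 0.31 ± 0.431 RPKM and the remaining populations at 0.148 or less on average.

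Its ligand was on the keratinocyte side. Il33 was highest in Epi, from 22.3 to 67.7 RPKM (median 47.4, mean 48.0 ± 15), and in Foll, from 20.2 to 70.4 (median 42.9, mean 42.3 ± 14.3), and these neighbours were not distinguished by the test. Neg (8.0 ± 3.4), BuSC (5.69 ± 2.67) and HGSC (5.31 ± 3.83) followed, and the steps between them were not called. DF (0.584 ± 0.339) and DP (0.273 ± 0.504) were lowest, and neither overlapped any epithelial library.

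Il18 was low in every population except Neg. Neg libraries ran from 0.137 to 7.03 RPKM with a median of 4.4 and a mean of 3.92 ± 2.51. In DF, the next in order, it was above 0 in all 8 libraries at 0.933 ± 0.533 RPKM, and Foll reached 0.766 ± 1.67 through 2 libraries, the higher at 4.7. In Epi it was at 0 in 7 of 8 libraries, where 3 reads would have been worth 0.258 to 0.385 RPKM. All Il18 values rest on few reads, 431 over the 8 Neg libraries.

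Along the receptor cluster on chromosome 1, neighbouring genes had unlike distributions. Il1rl2, the interleukin 36 receptor, was at 7.85 RPKM or more in all 56 libraries and highest in Epi, at 78.2 ± 18.1 RPKM. Il1rl1 and the interleukin 18 receptor genes had their highest means in Neg, with Il18r1 at 4.49 ± 2.22 RPKM and Il18rap at 1.76 ± 1.14. Il18r1 was also present in Epi (1.9 ± 1.75), Foll (1.67 ± 1.06) and HGSC (1.27 ± 0.746).

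**Figure D3:**
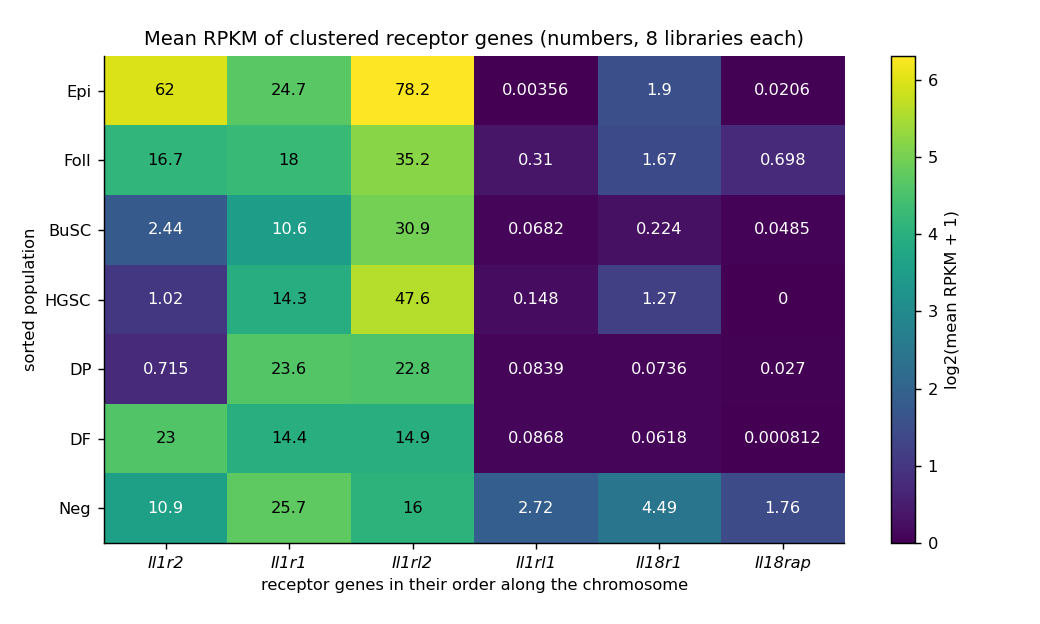
Mean RPKM of the 6 receptor genes of the chromosome 1 cluster in their order along the chromosome (columns) and in the 7 populations (rows, 8 libraries each); numbers are mean RPKM and colour is log2(mean RPKM + 1). Il1r2 and Il1rl2 had their highest means in Epi, and Il1r1, Il1rl1, Il18r1 and Il18rap in Neg.

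Differences between populations were tested with limma on log2(RPKM + 1) across 16731 genes, and 8 of the 9 genes were among them. Calls required an absolute log2 difference of at least 1 together with a p, adjusted by Benjamini and Hochberg's method, under 0.05. Of the 168 tests of these genes over all 21 pairs of populations, 76 were called, against 25.5% of all gene tests. By gene the calls were 17 for Il1r2, 16 for Il33, 14 for Il1rn, 8 for Il1rap, 6 each for Il1b, Il1rl1 and Il18, and 3 for Il1r1. Those of Il1rl1 were all against Neg, and this gene passed the filter only through its Neg libraries. The labels do not say that replicates came from separate animals, so p-values measure the spread between these libraries.

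**Figure D4:**
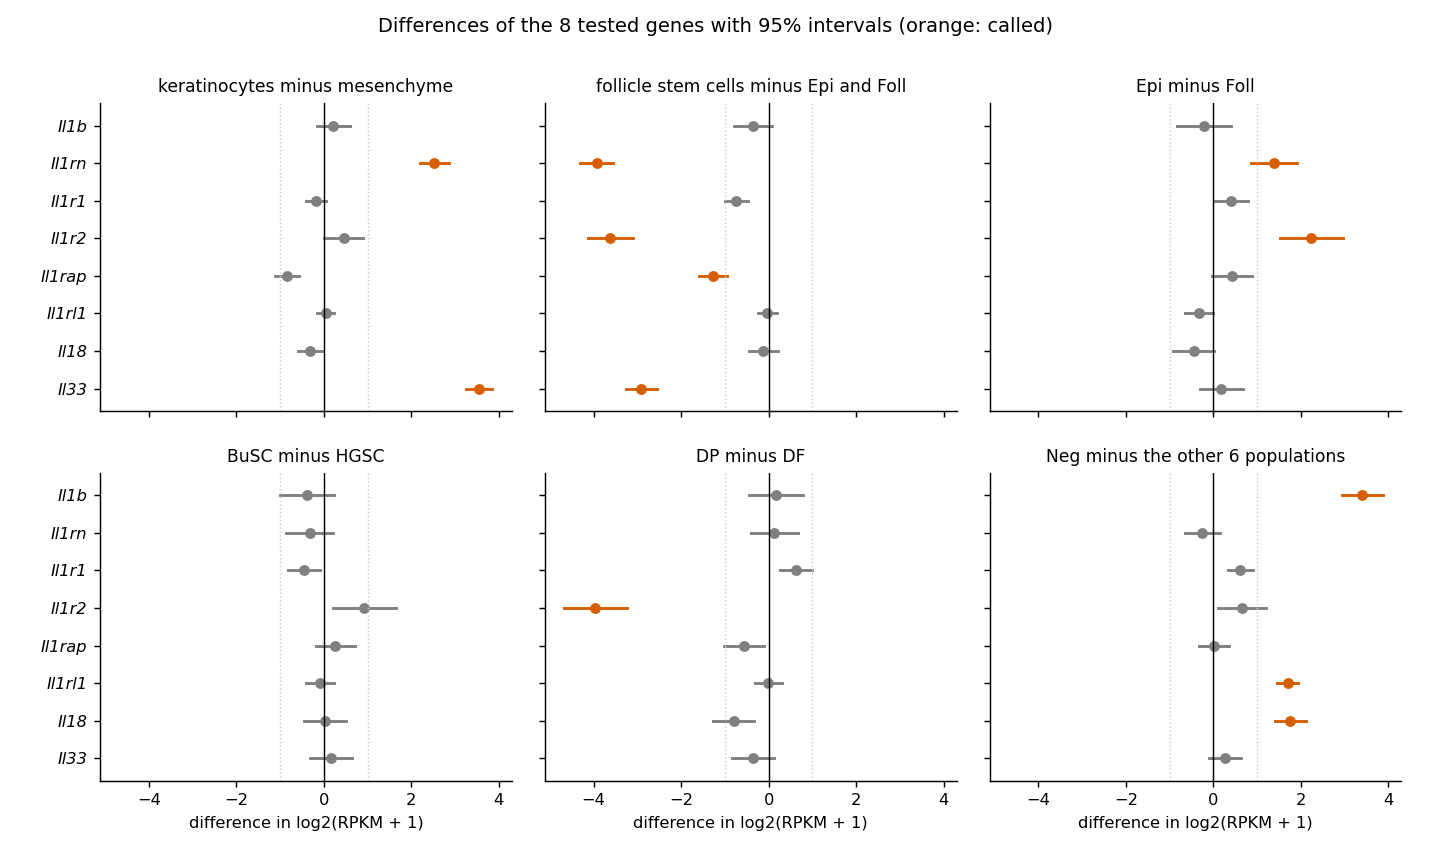
Difference in log2(RPKM + 1) of the 8 tested genes in 6 comparisons, with 95% confidence intervals; orange marks called differences and dotted lines mark a difference of 1. Il1rn, Il1r2, Il1rap and Il33 were lower in the follicle stem cells, Il1r2 was lower in DP than in DF, and Il1b, Il1rl1 and Il18 were higher in Neg.

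The follicle stem cells, BuSC and HGSC, were set against the other keratinocytes, Epi and Foll. In this comparison 13.8% of all genes were called, and 4 of the 8 tested family genes were, all lower in the stem cells. Il1rn had a mean of 0.772 RPKM over the 16 stem cell libraries and 27.5 over the 16 Epi and Foll libraries, a 35.6-fold ratio. The highest stem cell library (3.34) lay below the lowest of the others (7.39), and the log2 difference was -3.93 (SE 0.19, adjusted p = 3.08e-18). Il33 also separated without overlap, at most 13.8 RPKM against at least 20.2 (log2 difference -2.91, SE 0.17, adjusted p = 8.15e-16). Il1r2 fell from a mean of 39.4 to 1.73 RPKM (log2 difference -3.62, SE 0.25). Foll libraries at 3.82, 3.97 and 5.49 lay inside its stem cell range, which reached 5.61. Il1rap was lower by a smaller step (-1.28, SE 0.16, adjusted p = 3.06e-08). Il1r1 differed by -0.74 (SE 0.13, adjusted p = 1.66e-05), under the fold threshold, and Il1b, Il1rl1 and Il18 were between -0.36 and -0.03 with intervals that included 0. Over the 8 genes the median difference was -1.01, against 0.1 over all genes.

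Suprabasal keratinocyte markers moved with this comparison. They summed to 938 to 5210 RPKM in Epi and Foll libraries and to 16.4 to 284 in the stem cells, with 5 listed genes in the table. All 5 had a mean of at least 1 RPKM in Epi and Foll, and 4 did in BuSC and HGSC. Basal markers summed to 4950 to 13700 RPKM in Epi and Foll against 2050 to 7300 in the stem cells. The part of cell layers in the differences of Il1rn, Il1r2 and Il33 was not tested.

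Genes of the pathway lists are set beside the same share of all genes called, 13.8%. Of 14 tested NF-kB and interleukin 1 target genes, 5 were lower in the stem cells and 0 higher. With a pseudocount of 0.1 the counts were 7 lower and 1 higher, and with voom 8 and 1. Over all genes these settings called more as well, 3988 of 16731 and 4249 of 16727. The largest differences were those of Nfkbiz, an inducible NF-kB cofactor (-2.72, SE 0.18, adjusted p = 1.09e-14), Lcn2, an iron-sequestering antimicrobial protein (-1.96), Ptgs2, a prostaglandin synthase (-1.64), and Tnfaip3, an NF-kB inhibitor (-1.14). Among 17 signalling genes, Irak3 (-1.69, SE 0.19), an inhibitory kinase homologue, and Irak2 (-1.67, SE 0.25), a kinase of the receptor complex, were lower and 0 were higher, against 4 lower and 1 higher with voom. Both counts are near the share of all genes called, so no shift of the signalling list is drawn from them. Of 10 inflammasome and processing genes, the sensors Nlrp1a (-2.02) and Nlrp1b (-1.22) were lower and the protease Casp1 was higher (1.1, SE 0.29, adjusted p = 0.00254). Casp1 lost its call under quantile and median-of-ratios scaling and without the libraries closest to another population. Nlrp1a and Nlrp1b are near-identical neighbours whose reads the counting could split. Il36g, a related agonist, was the 1 of 4 other ligands called (-1.59, SE 0.2).

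Within the other keratinocytes, Epi was compared with Foll. Here 7.79% of all genes were called, and Il1rn and Il1r2 were called among the 8. Il1rn was higher in Epi by a log2 difference of 1.38 (SE 0.26, adjusted p = 3.01e-04), a call lost with a pseudocount of 0.1 (1.44, adjusted p = 0.059), and Il1r2 by 2.24 (SE 0.35, adjusted p = 2.92e-05). Without the libraries closest to another population, the Il1r2 difference was 2.61. Il33 differed by 0.18 with a 95% interval of -0.31 to 0.67, and Il1r1 by 0.41 (0.04 to 0.78, adjusted p = 0.127). Il1rl1, at -0.33 (SE 0.15) and not called, was called lower in Epi with voom (-3.29, adjusted p = 0.0288).

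The wider pathway differed in both directions between Epi and Foll. Il36g (1.36), its receptor gene Il1rl2 (1.27), Nlrp1a (1.63, SE 0.23) and Nlrp1b (1.4) were higher in Epi. Of the 14 target genes, 5 were lower in Epi and 0 higher (1 higher with a pseudocount of 0.1), led by Lcn2 (-2.19, SE 0.45, adjusted p = 7.55e-04) and the chemokine genes Cxcl1 (-1.51), Cxcl2 (-1.5) and Ccl2 (-1.41). The count of target genes lower in Epi was 3 under either other scaling. Casp1 (-1.64), the pore-forming Gsdmd (-1.14) and the DNA sensor Aim2 (-1.03) were also lower, and Gsdmd and Aim2 lost their calls under quantile and median-of-ratios scaling. By RPKM 0 of 17 signalling genes passed. Antigen-presenting cell markers differed between the libraries. The Langerhans and dendritic list summed to 141 to 587 RPKM in Foll and 7.82 to 408 in Epi, and the myeloid list to 19.0 to 194 and 4.17 to 36.8, and their part in these differences was not tested.

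BuSC was then compared with HGSC, where limma called 5.85% of all genes and 0 of the 8 family genes. The BuSC minus HGSC difference was 0.92 for Il1r2 (95% interval 0.2 to 1.64, adjusted p = 0.0958). For Il1r1 it was -0.45 (-0.82 to -0.08, adjusted p = 0.118). A count model of the recovered reads (limma's voom) called 1, Il1r2, at 2.97 (adjusted p = 0.00896). Fibroblast markers summed to 1090 to 8380 RPKM in BuSC against 33.6 to 243 in HGSC, and their part in the Il1r2 level of BuSC was not tested. Among the pathway genes Nfkbia, the NF-kB inhibitor that NF-kB induces, was lower in BuSC (-1.64, SE 0.19, adjusted p = 2.61e-08), as were Tnfaip3 (-1.33) and the pore-forming Gsdma (-1.04, and -0.87, not called, with median-of-ratios scaling). BuSC had Nfkbia at 14.0 ± 2.27 RPKM and HGSC at 46.2 ± 10.2, and the libraries did not overlap. Langerhans and dendritic markers summed to 0.798 to 28.8 RPKM in BuSC and to 67 to 425 in HGSC, and their part in these differences was not tested.

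Both mesenchymal populations differed in the decoy receptor. DP against DF called 30.3% of all genes and 1 of the 8, Il1r2. Its DP libraries ran from 0.0 to 4.19 RPKM with a median of 0.149 and lay below all DF libraries (8.95 to 37.2), a 32.2-fold ratio of means and a log2 difference of -3.97 (SE 0.35, adjusted p = 1.89e-11). All other DP libraries were at 0.819 or less. The median of all genes was shifted by 0.47 toward DP in this comparison, and by 0.08 and 0 after quantile and median-of-ratios scaling. Relative to that shift Il1r1, at 0.63 (SE 0.18) by RPKM, came to -0.05 and -0.22 under these scalings, so no direction is given for it. Il1rap (-0.56, SE 0.22) and Il18 (-0.8, SE 0.23) stayed under the fold threshold by RPKM and passed it under either scaling, at -1.25 and -1.34 for Il1rap and -1.07 and -1.21 for Il18. Il33, at -0.36 (SE 0.24), was not called. Both Il18 and Il33 were called lower in DP with a pseudocount of 0.1 (-2.52 and -1.38) and with voom (-3.4 and -2.38). At these low levels the calls depend on the pseudocount and the model.

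The signalling list showed how far the scale mattered between DP and DF. By RPKM 7 of 17 signalling genes were higher in DP and 0 lower, with a list median of 0.83. With quantile scaling 1 was higher and 1 lower, and with median-of-ratios scaling 0 were higher and 1 lower. The largest was Nfkbia (1.74, SE 0.19), at 48.3 ± 16.1 RPKM in DP and 13.5 ± 3.94 in DF, which came to 1.08 under quantile scaling and to 0.89, not called, under median-of-ratios scaling. Among targets, Nfkbiz was higher in DP (1.71, SE 0.25) and came to 1.03 and 0.88, the last not called. Called as lower in DP under each scaling were the proteases Casp4 (-2.53, SE 0.3) and Casp1 (-1.65, SE 0.41), the chemokine Ccl2 (-1.97, SE 0.41) and the adhesion molecule Icam1 (-1.48, SE 0.25).

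Pooled over populations, keratinocytes exceeded DP and DF in Il1rn and Il33. This comparison called 28.3% of all genes and 2 of the 8. Il33 had a mean of 25.3 RPKM over 32 keratinocyte libraries and 0.429 over 16 mesenchymal libraries, with no overlap (log2 difference 3.54, SE 0.15, adjusted p = 3.71e-21). Il1rn had means of 14.2 and 0.0983 RPKM, and its ranges overlapped (2.52, SE 0.16, adjusted p = 6.04e-16). By pairs, Epi and Foll were called above DP and DF for Il1rn, whereas BuSC and HGSC differed from them by 0.33 to 0.78, none called. The median of all genes was shifted by 0.27, and by 0.04 and -0.04 under the other scalings. Il1rap differed by -0.84 (SE 0.14, adjusted p = 1.60e-06), under the fold threshold, and was called lower in keratinocytes under quantile (-1.21) and median-of-ratios scaling (-1.3). Il18, at -0.32 (SE 0.14) and not called, was called lower in keratinocytes with a pseudocount of 0.1 (-1.26) and with voom (-1.65). Of the 10 inflammasome genes, 4 were higher in keratinocytes, led by the adaptor Pycard (2.58, SE 0.17) and the protease Casp8 (1.56, SE 0.11), and Gsdmd was lower (-2.98, SE 0.25, adjusted p = 5.99e-13). Median-of-ratios scaling made that 3 higher and 3 lower. Pycard stood at 23.7 ± 7.15 RPKM in Epi and 2.03 ± 1.16 in DF, and Gsdmd at 0.538 ± 1.1 and 17.4 ± 4.99. Signalling genes had 3 of 17 higher (Tab3 1.76, Nfkb1 1.37 and Ikbkb 1.16) and 0 lower, a count that was 1 and 0 under either other scaling. Of other ligands, Il36rn, the interleukin 36 antagonist, was higher (1.26, SE 0.24). Il1rl2 (1.17) and Sigirr (1.04) were the receptors called, and median-of-ratios scaling called 0. Tnfaip3 (1.82) and Icam1 (1.23) were higher among the 14 targets and 0 were lower, whereas median-of-ratios scaling had 1 higher and 2 lower, a pseudocount of 0.1 had 3 and 3, and voom 6 and 3. Voom called all 4 other ligands higher.

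The negative fraction was compared with the mean of the other 6 populations. It called 14.7% of all genes and 3 of the 8, all higher in Neg. Il1b differed most, with a log2 difference of 3.40 (SE 0.23, adjusted p = 1.48e-14) and a 31.6-fold ratio of means. Il18 differed by 1.76 (SE 0.18) and Il1rl1 by 1.70 (SE 0.12, adjusted p = 1.87e-14). Il1rl1 passed the filter of at least 1 RPKM in at least 2 libraries only through Neg, where it was high. Its call here therefore adds no support beyond its levels. Il1r1 differed by 0.61 (SE 0.14, adjusted p = 5.84e-04), under the fold threshold, and Il1rn by -0.25 (95% interval -0.65 to 0.16). With the voom model, Il1rn came out higher in Neg, at 1.45 (adjusted p = 0.0137), so its direction depends on the model. Il1r2, at 0.66 (SE 0.27) and not called, was called higher with a pseudocount of 0.1 (1.33) and with voom (1.43). Il33, at 0.26 (SE 0.18), was called higher with voom (1.02).

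Of the 4 tested chemokine genes among the targets, 3 were also higher in Neg, and Ccl20 was not called (-0.09, adjusted p = 0.575). Of 14 target genes 6 were higher and 0 lower, and 4 were higher under quantile scaling. Cxcl2, a neutrophil chemokine, stood at 21.7 ± 14.5 RPKM (3.88, SE 0.22, adjusted p = 2.12e-16), Cxcl1, of the same family, at 28.6 ± 11 (2.75), Ccl2, a monocyte chemokine, at 11.9 ± 8.12 (2.58), and Tnfaip3 at 27.3 ± 7.81 (1.42). Casp4 (2.71, SE 0.23), Aim2 (2.53, SE 0.22) and Gsdmd (1.73) were higher among 10 inflammasome genes. The interleukin 18 receptor genes Il18r1 (1.67) and Il18rap (1.26) and the inhibitory receptor Sigirr (1.00) were higher and Il1rl2 was lower (-1.05). Under quantile scaling 1 of these receptors was higher and 1 lower, and Il1rl2 lost its call without the libraries closest to another population. The kinase Irak4 (1.03, SE 0.27) was the 1 of 17 signalling genes called, and neither other scaling called it.

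Markers of several immune and vessel cell types were high in the same libraries. The myeloid list, 10 genes that all had a mean of at least 1 RPKM in Neg, summed to 445 to 837 RPKM there and to at most 194 elsewhere. The Langerhans and dendritic list summed to 1410 to 2200 in Neg against at most 587, the mast cell list to 184 to 613 against at most 26.9, the T cell list to 80.8 to 186 against at most 24.2 and the endothelial list to 138 to 260 against at most 25. Neutrophil markers summed to 0.555 to 7.69 RPKM in Neg, with 2 of 5 genes at a mean of at least 1, and to at most 8.36 elsewhere. The mast cell genes Tpsab1, Ms4a2 and Fcer1a were at 0 in all Epi and Foll libraries. Neg also held fibroblast markers (7000 to 14600 RPKM) and basal keratinocyte markers (398 to 1050), and melanocyte markers summed to 299 to 578 RPKM against at most 176 elsewhere. Which of these cells carried Il1b, Il18, Il1rl1 or the Il33 found in Neg was not tested.

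Genes with the most similar distributions were sought among 11719 genes by Pearson's r of log2(RPKM + 1) over the 28 group means. These means share libraries, so the values describe likeness and carry no p. Il1rn was most like Serpinb2, a protease inhibitor of the serpin family (r = 0.989), Gdpd2 (0.979) and Skint10 (0.975). Serpinb2 stood at 93.5 RPKM in Epi, 27.1 in Foll and at most 3.0 elsewhere. Il33 was most like the glucose transporter Slc2a1 (0.972) and Rasgrp1 (0.961), and Il1r2 like Cd55, a complement regulator (0.958), Arl4d (0.901) and Sectm1a (0.886). Cd55 shared the high Epi and DF levels of Il1r2, at 58.9 and 34.6 RPKM. Il1b was most like Clec10a, a lectin of macrophages and dendritic cells (0.958), Cyp11a1 (0.957) and Ugt8a (0.957). Il18 was nearest to Cd33 (0.872), Pik3r5 (0.861) and Plac8 (0.859), and Il1rl1 to Clic5 (0.969), Gimap1 (0.962) and Flt4, a growth factor receptor of lymphatic vessels (0.959). All these partners of Il1b, Il18 and Il1rl1 had their highest mean in Neg. Their r values, and that of Il1b with Il1rl1, cannot tell which cell type of Neg carried a gene. Il1rap (Prnp 0.838, Osbpl2 0.834, Arhgap23 0.829) and Il1r1 (Nbeal1 0.788, Zfp36 0.776, Ntrk2 0.772) had no comparably close partner. Among the 8 genes themselves, the closest pairs were Il1b with Il1rl1 (0.93) and Il1rn with Il33 (0.91), and Il33 with its receptor Il1rl1 came to 0.09.

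Few zone differences were found. Of 56 tests of a gene within a population, 1 was called at an adjusted p under 0.05, against 0.708% of all gene tests. The call was Il18 in Neg (moderated F, adjusted p = 0.0202). Its libraries stood at 4.78 and 7.03 RPKM in zone 1, 4.02 and 6.7 in zone 2, 0.137 and 1.07 in zone 3, and 2.49 and 5.13 in zone 4. Both zone 3 libraries lay below the other 6, with 2 and 81 reads. Without zone 3 replicate 1 the call was lost, and Neg zone 3 replicate 2 was the deepest library of the series, at 87.8 M reads. No linear trend over zones passed for Il18 (-0.37 log2 per zone step, adjusted p = 0.601).

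Other zone patterns did not pass. Il33 in Neg had zone means of 4.89, 5.62, 9.47 and 12 RPKM (trend 0.41 per step, SE 0.15, adjusted p = 0.503). Il1rn in Epi had 59.6, 36.9, 34.8 and 28.9 (trend -0.31, SE 0.17, adjusted p = 0.457), and Il1rap in Foll had 1.7, 2.61, 4.15 and 5.65 (trend 0.39, SE 0.14, adjusted p = 0.213). Il1r2 in HGSC stood at 4.17 and 3.16 RPKM in zone 4 and had means of 0.0249, 0.148 and 0.242 in zones 1 to 3 (F adjusted p = 0.567). Whether zones differed unlike between populations was tested by limma's interaction F, which called 0.317% of all genes and 0 of the 8. Il18 and Il33 had limma adjusted p values of 0.598 and 0.656 in that model, and the voom model also called 0.

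**Figure D5:**
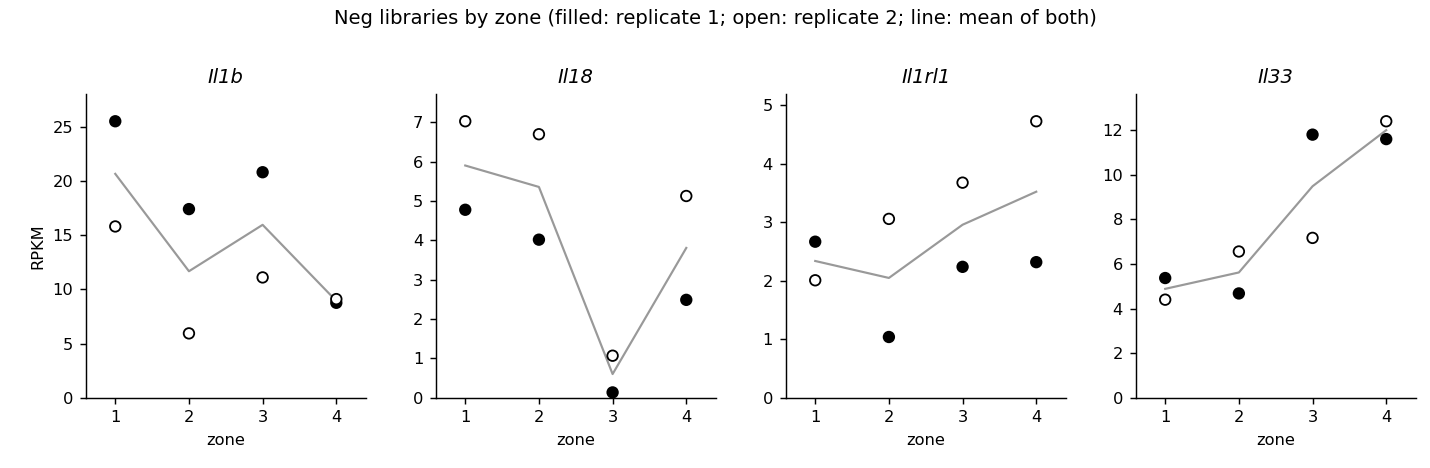
RPKM of Il1b, Il18, Il1rl1 and Il33 in the 8 Neg libraries by zone; filled points are replicate 1, open points replicate 2, and the line joins zone means. Il18 was lowest in zone 3, at 0.137 and 1.07 RPKM, and the rise of the Il33 means from 4.89 to 12 did not pass the test.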

How the data were processed

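RNA of 56 libraries from 7 sorted populations was sequenced. Per the labels' protocols, RNA was amplified before library preparation. The authors deposited RPKM per gene symbol, and the submitters' processing notes name mm10, STAR 2.4.0, featureCounts, limma, edgeR and DESeq2. The sources used here do not state filters, gene models or strand. Because each value is a multiple of 1 read, whole reads were recovered for 22229 of 22233 genes above 0 (tolerance 0.02 reads). Totals were 3.24 to 87.8 M reads, which limits precision at low levels, and floors of 3 reads cover counting error only.

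limma 3.58.1 in R 4.3.3 fitted log2(RPKM + 1) with a mean for each of 28 groups (28 residual degrees of freedom) and a trend of variance on abundance, over 16731 genes with at least 1 RPKM in at least 2 libraries. This scale understates changes of low genes. Contrasts were tested two-sided and zones by moderated F tests, with Benjamini-Hochberg adjustment over all tested genes. The fit was tested on simulated data in which 200 genes were changed in Epi. Of these 75.5% were recovered, 8 other genes were called wrongly, and 4 zone calls arose where no zone difference had been made. All changed genes were well above the filter, so recovery of low genes was not measured. Alternatives were another pseudocount (0.1), no filter, quantile and median-of-ratios scaling, voom on recovered reads, replicate blocks, the compared populations alone and each library left out. Leaving out the libraries closest to another population was added after seeing the data.

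The genes and lists were chosen with earlier results of these data known. Pathway genes were named with values when called, at most 4 per list and comparison by size, and 3 most similar genes per tested gene with a mean of at least 5 RPKM in a population. One of these similar genes is not reported here. Gene positions came from GENCODE M21 and upstream sequences from RefSeq (GRCm38.p6), which matched all 9 genes with 14 windows. Names were used as deposited, and the 2 closest libraries correlated at 0.9699, below identity.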

Additional observations from a re-analysis of the deposited data

Results flagged for a closer look

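In 7 of 56 groups of 8 libraries, 1 gene in 1 population, a single library stood apart by Dixon's criterion, the gap to its nearest neighbour as a share of the group's range. For normally distributed values chance flags about 1 group in 20, and the rate for groups with many values at 0, as here, was not measured. All 7 are high values of genes that are low in that population. In DF, Il1rn reached 0.142 RPKM in zone 3 replicate 2 (12 reads), against at most 0.0478 in the others. In DP, zone 4 replicate 1 had Il1r2 at 4.19 RPKM (119 reads) against at most 0.819, zone 1 replicate 1 had Il33 at 1.49 (74 reads) against at most 0.294, and zone 2 replicate 2 had Il1rl1 at 0.443 (36 reads) against at most 0.163. In BuSC, zone 2 replicate 2 had Il1rl1 at 0.312 RPKM (99 reads) against at most 0.107, and zone 1 replicate 1 had Il18 at 1.02 (12 reads) against at most 0.0782. In Epi, zone 3 replicate 2 had Il18 at 0.138 RPKM (6 reads), where the other 7 libraries were at 0.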

How the results depend on the processing

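Counts refer to the 8 tested genes. A pseudocount of 0.1 gave 4 calls for keratinocytes against mesenchyme, 1 for Epi against Foll (Il1rn lost its call), 1 for BuSC against HGSC, 3 for DP against DF and 0 for zones. Quantile and median-of-ratios scaling each gave 3 for DP against DF. The voom model gave 4 for keratinocytes against mesenchyme, 1 for BuSC against HGSC, 3 for DP against DF and 6 for Neg, and it turned Il1rn in Neg to 1.45. Beyond these shifts of scale and model the cause was not tested. Leaving out single libraries gave 0 to 1 calls for BuSC against HGSC (1 without BuSC zone 2 replicate 1), 0 to 2 for zones (0 without Neg zone 3 replicate 1, 2 without Foll zone 2 replicate 2) and 0 to 1 for the interaction (1 without Foll zone 2 replicate 2), and left the member counts of the other comparisons within 1.5 times. Without the libraries closest to another population, population pairs gave 77 calls and the 6 comparisons kept their counts.

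Differences of replicate 1 and 2 in the same zone correlated between populations at -0.028 to 0.0851 over 84 pairs, and 0 exceeded 0.1. No shift shared by replicate number was visible, but low correlations cannot tell whether populations of one replicate number came from the same animals. With a replicate block the counts were 2 (keratinocytes against mesenchyme), 2 (Epi against Foll), 0 (BuSC against HGSC), 4 (follicle stem cells), 1 (DP against DF), 3 (Neg), 76 (pairs), 1 (zones) and 0 (interaction), as without it.

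Over all genes, counts of calls behind the background shares moved by over 1.5 times in these cases. For the follicle stem cells, 2315 calls became 3988 with a pseudocount of 0.1 and 4249 with voom, and for Neg 2459 became 3740 and 4047. With voom, 4734 became 7761 for keratinocytes against mesenchyme and 978 became 1601 for BuSC against HGSC. For DP against DF, 5067 became 3100 with quantile and 3130 with median-of-ratios scaling. Fitting Epi and Foll alone turned 1303 calls into 479. The 829 zone calls became 1367 without the filter, 511 with voom, 3034 without the libraries closest to another population, and 1660, 1534 and 1412 without replicate 2 of Epi zone 3, Foll zone 4 and Epi zone 4. The 53 interaction calls became 26 with a pseudocount of 0.1, 192 without the filter, 234 with voom, 298 without the libraries closest to another population, and up to 108 (without Epi zone 3 replicate 2) when 1 library was left out. Among the pathway lists, the inflammasome genes lower in DP were 2 by RPKM, 3 under either scaling and 4 with voom or a pseudocount of 0.1, and those higher in keratinocytes than in mesenchyme were 4 by RPKM and 6 with voom. Targets lower in DP were 2 by RPKM and 4 under either scaling. In libraries at 0, levels of Il1a, Il18 and Il1rl1 under the worth of 3 reads could have gone undetected.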
